A study of Mus musculus with 4 samples.

Results

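Kidneys of diabetic mice that had lost 1 kidney were compared with kidneys of nondiabetic mice that had a sham operation, across all genes named on the array. These are 2 of the 4 arrays of the study, 1 for each combination of diabetes and surgery, and each array was hybridised with RNA pooled from 4 mice. The comparison covers 11206 expressed genes of the 18193 genes named on the array. All mice were females on the FVB/NJ background, operated at 2 months of age and examined at 4.5 months, 10 weeks after surgery. The first group carried the OVE26 transgene, was diabetic and had undergone uninephrectomy, which is the surgical removal of 1 kidney. The second group was made up of control littermates without diabetes after sham surgery, with both kidneys in place. The other 2 arrays held nondiabetic uninephrectomy and diabetic sham kidneys, and their values are given beside the comparison. The OVE26 transgene is expressed in the beta cells of the pancreas and its carriers become diabetic early in life, so the diabetes is of beta cell origin and began before surgery. In the study's design uninephrectomy served as an accelerating factor.

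The kidney filters blood in glomeruli, whose barrier is formed by podocytes, and its tubules then take back salt, glucose, amino acids and phosphate. In diabetic kidney disease the glomerulus and the space between the tubules fill with collagen and other matrix, white blood cells enter the tissue, and tubule cells lose part of their transport functions. Injured tubule cells make proteins that healthy tubules hardly produce, such as the lipid-carrier protein encoded by Lcn2 and the receptor encoded by Havcr1 (kidney injury molecule), and some of them re-enter the cell cycle. Removal of 1 kidney raises the work load of the one that remains.

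The deposited values are linear array signals. Differences were computed as log2(signal + 26.4) of diabetic uninephrectomy minus nondiabetic sham, where 26.4 is the 20th percentile of all signals. Because of the offset, a dim gene has a smaller difference than its plain signal ratio. A gene is called higher or lower when it differed at least 2-fold, that is by at least 1 on this log2 scale. With 1 array of pooled RNA a group there is no replicate check and no error between animals, and the 2 arrays alone give no p-value. A gene dim in nondiabetic sham can pass the expression filter, which uses the mean of all 4 arrays, through the arrays where it is bright, so list counts over expressed members are given with those over all members on the array where these differ most. Precision is limited by having so few arrays. Where 4 signals follow each other, they stand in 1 order: nondiabetic sham first, then uninephrectomy without diabetes, then diabetes with sham surgery, and diabetic uninephrectomy last. The nondiabetic sham array is shared by each difference given here for the other 2 arrays. RNA was taken from whole tissue, so fewer cells of a type and less RNA per cell cannot be told apart.

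Both arrays had like overall levels, with median signals of 106.8 (nondiabetic sham) and 107.7 (diabetic uninephrectomy). The hybridisation spike-ins (18 Bio and Cre probe sets) stood at 0.918 of their nondiabetic sham level in diabetic uninephrectomy and at 1.23 and 1.24 in nondiabetic uninephrectomy and diabetic sham, respectively. Signals for 18S ribosomal RNA, from 3 probe sets, were 1.88 times the nondiabetic sham level in diabetic uninephrectomy, 1.02 times in nondiabetic uninephrectomy and 1.32 times in diabetic sham. The ratio of 3' to 5' probe sets, which goes up when RNA is broken, was 0.897 and 0.906 for Gapdh and 2.78 and 3.38 for Actb in the 2 arrays. The part of these levels in the gene differences was not tested. Kidney markers were bright on both arrays. The proximal tubule gene Kap, for example, read 48290 in nondiabetic sham and 28539 in diabetic uninephrectomy.

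The kidneys of diabetic uninephrectomised mice held more messenger RNA of tubular injury, fibrillar collagen, DNA replication, mitosis and macrophage genes. Fewer genes were lower, among them the tyrosine enzyme Hpd, the organic anion transporters Slc22a7 and Slc22a8 and the podocyte gene Nphs1, and most members of their lists did not reach 2-fold. Of the 11206 expressed genes, 240 (2.14%) were at least 2-fold higher and 85 (0.759%) at least 2-fold lower, 325 (2.9%) in either direction. Higher genes thus made up 73.8% of the called genes, although only 48.9% of all expressed genes were higher by any amount. When the arrays were scaled to their spike-ins, the numbers were 330 higher and 55 lower, and higher genes made up 85.7% of the called ones. With no expression filter they were 801 higher and 573 lower, and the share of higher genes was 58.3%. The size of the excess thus depended on the filter. Among the expressed genes the excess of higher genes grew with the size of the difference. At least 4-fold differences were 38 upward and 5 downward. On the log2(signal + 26.4) scale 2 genes, Lcn2 and Havcr1, were over 8-fold higher and 0 were as far below. By the plain ratio of signals 8 genes were over 8-fold higher, Il1f6, Cd44, Mcm6, Ccl9, Fgg and Aldh1a7 with them, and again 0 were as far below. Of these, Lcn2, Il1f6, Cd44, Mcm6 and Ccl9 had nondiabetic sham signals under the expression threshold of 107, so their ratios rest on near-floor values. Mcm6 and Ccl9 were under it on every array but diabetic uninephrectomy.

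Most genes lay near 0. The median difference was -0.01, the middle 50% of genes lay between -0.21 and 0.20, and 84.5% lay within 0.5 of 0. The 1st and 99th percentiles were -0.95 and 1.35, so the upper tail was the longer one. Across the 11206 genes, which are not independent replicates, the log2 values of the 2 arrays had a Pearson correlation of 0.971. Dim genes scattered more than bright ones. The SD of the differences was 0.576 in the 10% of genes with the lowest mean signal, where 58 genes were called higher and 23 lower, and 0.301 in the brightest 10%, where 7 were called higher and 5 lower.

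**Figure D1:**
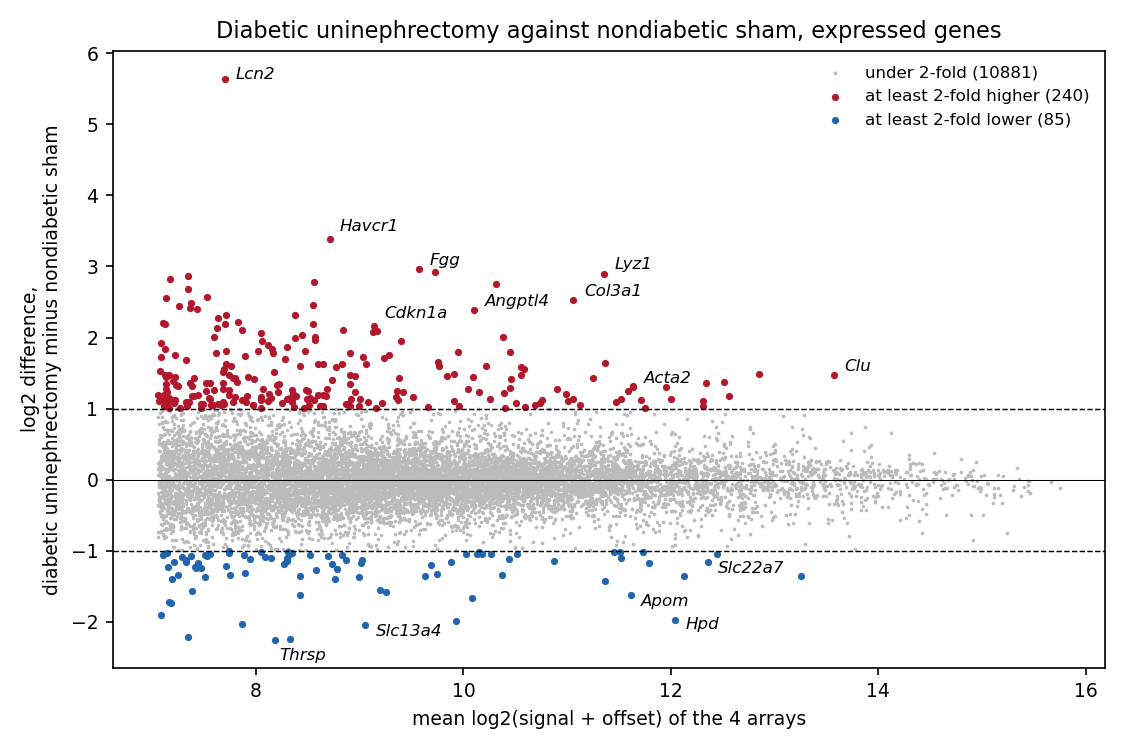
Log2 difference between diabetic uninephrectomy and nondiabetic sham kidneys (y axis) against the mean log2(signal + offset) of the 4 arrays (x axis), with 1 point for each of 11206 expressed genes. The dashed lines mark 2-fold; 240 genes (red) lie above and 85 (blue) below, and Lcn2 stands alone at 5.64.

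Genes with over 1 expressed probe set allow a check on the probes, since probe sets of 1 gene read the same RNA on the same array. Among the 240 higher genes, 60 had further expressed probe sets, and in 55 of these (91.7%) the median of the further probe sets was also above 0. For the lower genes it was below 0 in 23 of 25 (92%). Among genes called neither way the further probe sets had the sign of the first in 63.6% of 4839 genes. The size held less well than the sign. In 21 of the 60 higher genes the further probe sets were also at least 2-fold higher, with a median of 0.67 against 1.25 for the probe set that stands for the gene, which is the brightest one. Over 8158 pairs of probe sets of 1 gene, the median absolute disagreement was 0.23, and 90% of pairs differed by less than 0.65. Hells, a chromatin remodelling gene, is an example of disagreement, with 2.57 in its brighter probe set and 0.20 in the other.

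**Figure D2:**
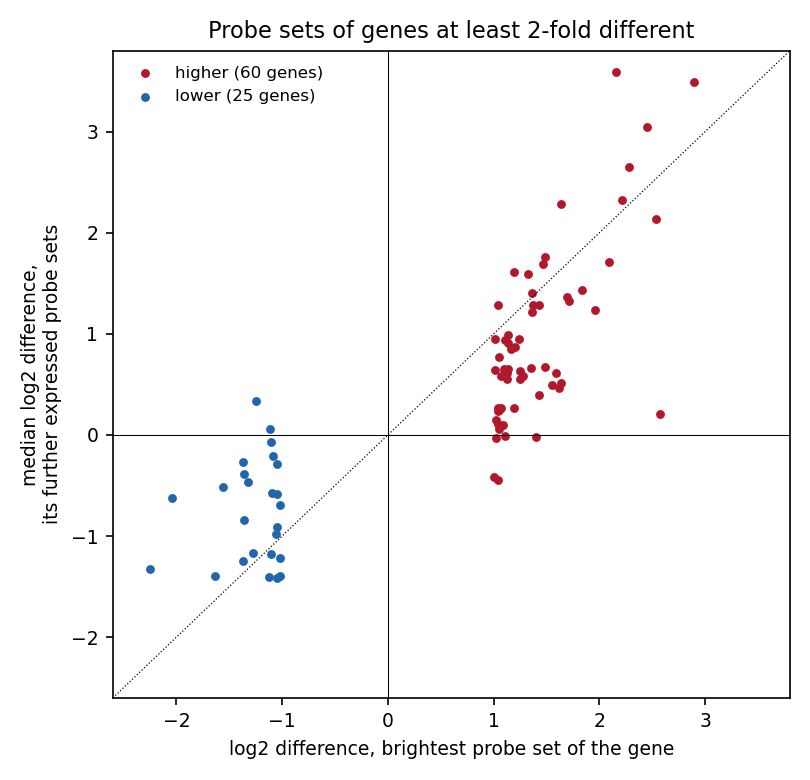
Log2 difference of the brightest probe set of each called gene (x axis) against the median difference of its further expressed probe sets (y axis), for 60 genes called higher (red) and 25 called lower (blue); the dotted line marks equal values. Nearly all points share the sign of the brightest probe set (55 of 60 and 23 of 25), and most lie closer to 0 than the dotted line.

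Tubular injury genes included the largest single differences. Of 20 expressed genes of this list, 13 (65%) were at least 2-fold higher and 0 lower, beside 2.14% and 0.759% of all expressed genes. The median was 1.24 against -0.01 for all expressed genes. The same shares and median of all expressed genes are the background of each list below. Lcn2 had a signal of 41.7 in nondiabetic sham, 5.7 in nondiabetic uninephrectomy, 224.5 in diabetic sham and 3374.4 in diabetic uninephrectomy, a log2 difference of 5.64. That is 49.9-fold on the log2(signal + 26.4) scale against a plain signal ratio of 80.9, and since the nondiabetic sham signal was under the expression threshold of 107, the size of this fold rests on the offset. The value in diabetic uninephrectomy stood far above those of the other 3 arrays. Havcr1 read 221.0, 98.8, 359.0 and 2551.6 on the 4 arrays, which is 3.38 on the log2 scale or 10.4-fold. Cd44, a hyaluronan receptor of activated tubule and immune cells, read 45.9, 99.8, 117.1 and 502.2 (2.87). For these 3 genes diabetic sham was above nondiabetic sham but several times below diabetic uninephrectomy.

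Other members of the list followed. Both probe sets of Tnfrsf12a, the receptor of the cytokine TWEAK, were higher, by 2.45 and 3.05. Vcam1, an adhesion molecule for white blood cells, had signals of 507.1 in nondiabetic sham and 2041.2 in diabetic uninephrectomy, a difference of 1.95. On the other 2 arrays it read 437.8 and 375.3, and its further probe sets gave 1.54 and 0.93. Of the keratins of simple epithelia, Krt19 (2.19) and Krt18 (1.28) were at least 2-fold higher, while Krt8 (0.92) and Krt7 (0.47) were not. Clu, which encodes the secreted chaperone clusterin, was already bright in nondiabetic sham at 7856.6 and reached 21781, and its 4 probe sets lay between 1.47 and 1.84. The injury list had a median of -0.06 in nondiabetic uninephrectomy and 0.30 in diabetic sham, both against the same nondiabetic sham array. Members near or below 0 were Cryab (0.05), a small heat shock protein gene of the inner medulla, and Prom1 (-0.31). Timp1, an inhibitor of matrix proteases, lay below the expression filter although its signal was 53.7 in nondiabetic sham and 396.0 in diabetic uninephrectomy.

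**Figure D3:**
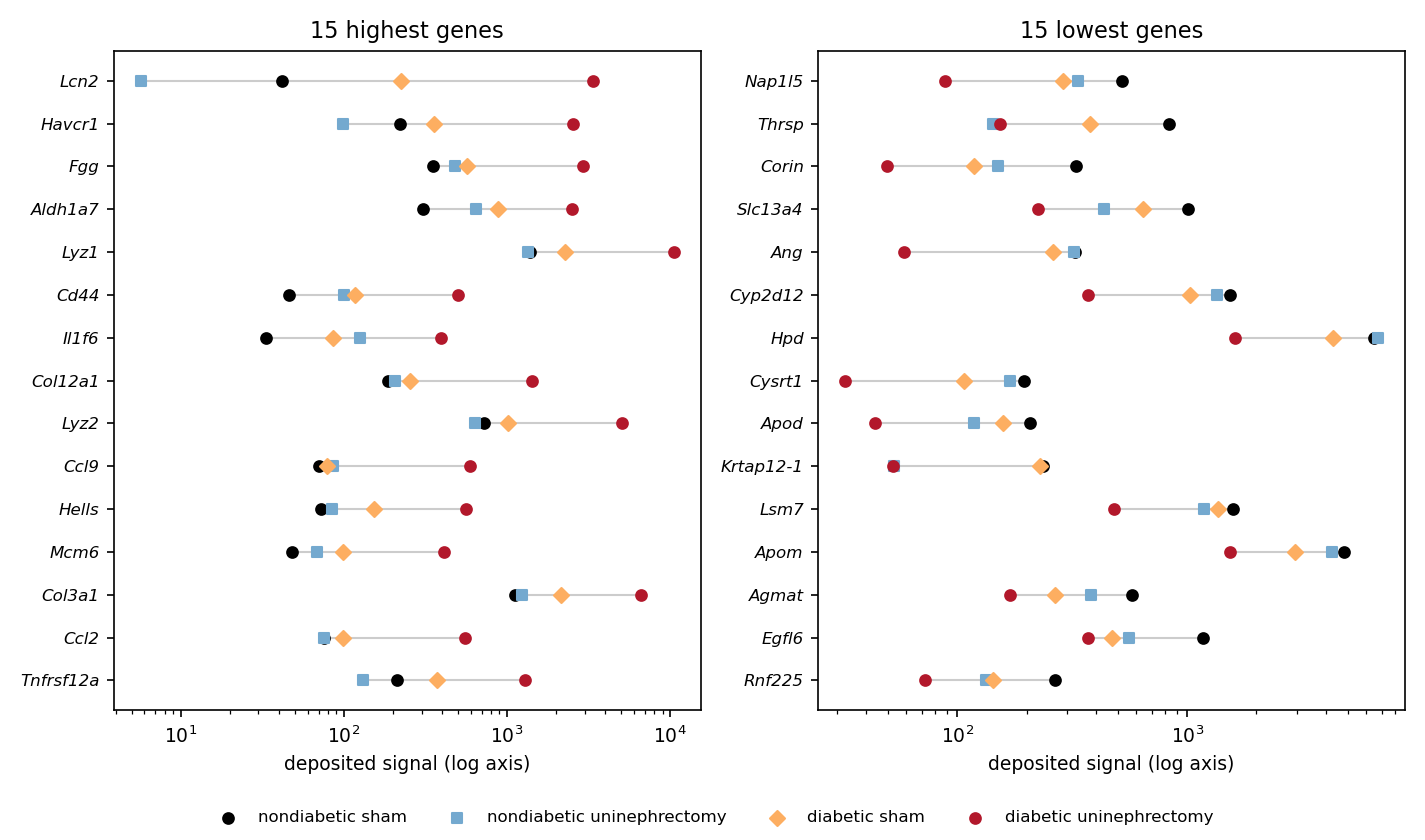
Deposited signal (x axis, log scale) of the 15 genes with the highest (left) and the 15 with the lowest (right) log2 difference on each of the 4 arrays, 1 marker for each array of pooled RNA and no error bar. In all 15 genes on the left the diabetic uninephrectomy array is highest, as for Havcr1 at 2551.6 against 359.0 in diabetic sham; on the right it is lowest except for Thrsp (154.0 against 143.6 in nondiabetic uninephrectomy).

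Collagens of the fibrous matrix also stood higher. Of 19 collagen genes, all expressed, 10 were at least 2-fold higher and 0 lower, and the median was 1.08. Type III collagen, Col3a1, had a signal of 1122.0 in nondiabetic sham, 1229.7 in nondiabetic uninephrectomy, 2150.2 in diabetic sham and 6609.8 in diabetic uninephrectomy, a difference of 2.53, and its second probe set gave 2.14. Both chains of type I collagen were higher, Col1a1 by 2.42 (72.4 to 502.2) and Col1a2 by 1.64 (1833.3 to 5750.7, with 2.29 in its second probe set). Col12a1, a collagen bound to fibrils, differed by 2.78, Col5a2 by 2.06 and Col8a1 by 1.71.

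Chains of the basement membrane collagen IV differed among themselves. Col4a1 and Col4a2, the chains found in basement membranes of most tissues, differed by 1.32 and 1.08. Col4a3, Col4a4 and Col4a5 form the collagen IV of the mature glomerular filter and differed by -0.11, -0.71 and 0.32. Col4a4 had signals of 5885.7 in nondiabetic sham, 4953.1 in nondiabetic uninephrectomy, 4432.2 in diabetic sham and 3580.2 in diabetic uninephrectomy. Its difference did not reach 2-fold, so no collagen IV chain was called lower.

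Among 25 expressed genes of other matrix proteins and their processing, 7 were at least 2-fold higher and 0 lower, with a median of 0.72. Fn1, which encodes fibronectin, had signals of 948.0 and 2568.8 in the 2 arrays compared, a difference of 1.41. Lox, the enzyme that cross-links collagen, differed by 1.73 and Ccn2 (connective tissue growth factor) by 1.11. The matricellular genes Tnc, Postn and Sparc differed by 1.37, 1.35 and 1.25, with 1.09 and 0.18 in further probe sets of Sparc. Elastin, Eln, was at -0.36, Fbln1 at -0.37 and the protease inhibitor gene Timp3 at -0.26. The median collagen difference was 0.03 in nondiabetic uninephrectomy and 0.39 in diabetic sham, and that of the other matrix genes -0.11 and 0.28.

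Genes of the TGF-beta family, whose signalling is known to induce matrix genes, had a median of -0.05 over 21 expressed members, which became 0.07 under spike-in scaling. Inhbb, the beta-B subunit of activin, was at least 2-fold higher (1.43) and Id1, a target of BMP signalling, at least 2-fold lower (-1.18). Each was 4.76% of the list, beside 2.14% higher and 0.759% lower of all expressed genes. Id3 was at -0.92, and Id4, outside the list, was lower in all 3 probe sets, between -1.02 and -1.30. Fst, an activin antagonist, was at 0.93. The ligand Tgfb1 read 66.9 in nondiabetic sham, 135.0 in nondiabetic uninephrectomy, 191.6 in diabetic sham and 148.5 in diabetic uninephrectomy (0.91). Diabetic uninephrectomy was not its highest array, but its signals were dim and that of nondiabetic sham was under 107, so this order is uncertain. Smooth muscle and myofibroblast genes included 2 of 19 (10.5%) at least 2-fold higher, beside 2.14% of all expressed genes. These were Tagln (1.44) and Acta2, with signals of 2178 and 5431 (1.31). The median of that list was 0.43.

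Genes of DNA replication and of mitosis stood higher as well. All 22 expressed replication genes had a difference above 0, 11 of them were at least 2-fold higher, and the median was 0.96. Over all 29 replication genes on the array 28 were above 0, 12 were at least 2-fold higher, and the median was 0.89. Mcm6, a subunit of the MCM helicase that opens DNA for copying, had signals of 48.4 in nondiabetic sham, 68.3 in nondiabetic uninephrectomy, 98.3 in diabetic sham and 411.8 in diabetic uninephrectomy, a difference of 2.55. In their brightest probe sets the other subunits were at 1.97 for Mcm5, 1.24 for Mcm4, 1.06 for Mcm3, 0.77 for Mcm7 and 0.09 for Mcm2. A further probe set gave 0.95 for Mcm4 and 0.27 for Mcm3, so probe sets of 1 subunit also differed in size. Rrm2, the inducible subunit of ribonucleotide reductase, was higher in all 3 of its probe sets, by 1.61 to 2.09. Uhrf1, which couples DNA methylation to replication, differed by 2.41, and Cdt1, which licenses origins, by 1.79. Pcna, the sliding clamp, was the brightest replication gene and differed by only 0.41 (4236.7 to 5653.3).

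Of 29 mitosis genes on the array only 12 passed the expression filter. Of these 8 were at least 2-fold higher and 0 lower, with a median of 1.51, beside 0.50 in nondiabetic uninephrectomy and 0.70 in diabetic sham. In 7 of the 12 the nondiabetic sham signal was under 107, so they passed the filter through arrays where they were brighter. Over all 29 genes 17 were at least 2-fold higher, 1 was lower and the median was 1.24. Of the 17 higher ones 9 lay below the filter. Among all 6987 genes below it, 561 were at least 2-fold higher and 488 lower. Mki67, the proliferation marker, had signals of 69.4, 147.7, 215.4 and 451.1, a difference of 2.32. Top2a, the topoisomerase of dividing cells, was at 2.13, Cdc20, an activator of the anaphase ligase, at 1.83, and cyclin genes Ccnb2 and Ccna2 at 1.69 and 1.41. Foxm1 (0.14) and Tpx2 (-0.08) did not share this. Of the 17 members below the filter, Cdk1, the mitotic kinase gene, read 49.6 and 309.8, while Bub1b read 93.2 and 21.4 (-1.32), and Plk1, Cenpe and Tacc3 were at -0.09, -0.01 and 0.01. The cell cycle inhibitor Cdkn1a (p21) also stood higher, at 301.9 in nondiabetic sham and 1437.9 in diabetic uninephrectomy, by 2.16 and by 3.59 in its second probe set. It was the only one of 21 expressed p53 target and inhibitor genes called higher, and Cdkn1c (p57), at -1.05, the only one called lower. Each was 4.76% of that list, beside 2.14% higher and 0.759% lower of all expressed genes.

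Since these genes stood higher together, their promoters were read for letters bound by cell cycle regulators. The CCAAT box is bound by NF-Y, E2F sites by the E2F factors that act in S phase, and the CHR element TTTGAA by the complexes that act in mitosis. The stretches end at the base before the transcription start in the RefSeq annotation of GRCm38.p6, and capitals mark a CCAAT box (CCAAT or, on the other strand, ATTGG), an E2F match (TTTCGCGC, TTTGGCGC, TTTCCCGC or TTTGCCGC on either strand), or a CHR match (TTTGAA or TTCAAA). Replication genes Mcm6 and Mcm5 are shown for their overlapping E2F matches, and mitosis genes Top2a, Cdc20 and Ccnb2 for their repeated CCAAT boxes.
Mcm6 (chr1:128359706-128359825, minus strand): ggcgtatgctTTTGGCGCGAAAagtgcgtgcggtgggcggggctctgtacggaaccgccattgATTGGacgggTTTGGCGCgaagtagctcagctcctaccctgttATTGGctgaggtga
Mcm5 (chr8:75109349-75109508, plus strand): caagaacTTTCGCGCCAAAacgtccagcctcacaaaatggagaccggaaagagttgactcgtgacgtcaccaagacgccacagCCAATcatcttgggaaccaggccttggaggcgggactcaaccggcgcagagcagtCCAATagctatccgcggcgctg
Top2a (chr11:99024190-99024309, minus strand): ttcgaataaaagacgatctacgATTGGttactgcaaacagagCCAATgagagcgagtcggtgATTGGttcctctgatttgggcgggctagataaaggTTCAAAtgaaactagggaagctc
Cdc20 (chr4:118437344-118437463, minus strand): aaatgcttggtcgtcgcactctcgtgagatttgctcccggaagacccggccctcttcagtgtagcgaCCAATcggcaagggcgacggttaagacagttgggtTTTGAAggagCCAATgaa
Ccnb2 (chr9:70421555-70421674, minus strand): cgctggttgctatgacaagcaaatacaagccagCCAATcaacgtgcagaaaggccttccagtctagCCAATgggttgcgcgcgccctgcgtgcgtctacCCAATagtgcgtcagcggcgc

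The table of promoters held 242 of the 325 called genes and 28 of the expressed replication and mitosis genes. In the 250 bases before the start, a CCAAT box was found in 21 of these 28 (75%), against 35.7% of 9114 expressed genes and 34.5% of all 27025 promoters. An E2F match was found in 5 of the 28 (17.9%), against 3.52% and 1.91%, and a CHR match in 7 (25%), against 10.5% and 16.3%. Over all 176 higher genes with a promoter the shares were 39.8% for CCAAT, 3.98% for E2F and 20.5% for CHR. The 66 lower genes with a promoter had 39.4%, 3.03% and 21.2%. A match is a run of letters and not a measured binding site, and the replication and mitosis shares describe lists whether or not each member was called.

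Macrophage and myeloid genes were higher in diabetic uninephrectomy, with 12 of 20 expressed members at least 2-fold higher, 0 lower and a median of 1.09. The median of the same genes was 0.20 in nondiabetic uninephrectomy and -0.0027 in diabetic sham. The signals summed over the list were 14364 in nondiabetic sham, 13595 in nondiabetic uninephrectomy, 14605 in diabetic sham and 33608 in diabetic uninephrectomy. The lysozyme genes had the largest differences of the list, and without Lyz1 and Lyz2 the sum was 12246 in nondiabetic sham and 18019 in diabetic uninephrectomy, 1.47 times higher in place of 2.34 times. The median difference without them was 1.08. Lyz2, the myeloid lysozyme, had signals of 726.8, 634.8, 1010.8 and 5042.8 in that order (2.75), and Lyz1 reached 10547 (2.90). These neighbouring paralogs are near-identical in sequence, so their signals may not be separable.

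The other myeloid members differed by less. Cd14, the endotoxin co-receptor, was at 1.73, Ms4a7 at 1.81, the signalling adaptors Tyrobp and Fcer1g at 1.47 and 1.42, and the complement gene C1qa at 1.25, with 474.3 in nondiabetic sham and 1160.7 in diabetic uninephrectomy. Adgre1, the F4/80 antigen of mouse macrophages, was at 0.76 and Cd68, below the filter, at 1.17. Csf1r, the receptor of macrophage growth factor, was the brightest of the non-lysozyme members and was not higher (6557.7 against 5181.9, or -0.34). Of 21 T, B and plasma cell genes on the array 7 were expressed, and Jchain, which joins antibody chains in plasma cells, was the only one called higher (1.60, 873.8 to 2700). Its signal was 1591 in nondiabetic uninephrectomy and 486.0 in diabetic sham. The T cell genes Cd3d, Cd3e, Cd3g and Cd4 lay below the filter, as did 13 of 14 neutrophil and mast cell genes.

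Among 13 expressed cytokine, chemokine and adhesion genes, 5 were at least 2-fold higher, 0 lower, and the median was 0.80. Over all 29 on the array 14 were at least 2-fold higher, 0 lower, and the median was 0.99. Ccl2, which draws monocytes, had signals of 76.0, 75.3, 98.9 and 549.8 (2.49). Csf1, the ligand of Csf1r, was at 1.14 and Icam1, a ligand for white cell integrins, at 1.07. The epithelial chemokine Ccl28 was at 1.49, with 0.68 in its second probe set. Cxcl12, the brightest chemokine of the list, was at -0.46. Ccl9, another monocyte chemokine outside the list, was at 2.68. Socs3, the feedback inhibitor of IL-6 type cytokine signalling, was higher in both expressed probe sets, by 2.28 and 2.65. Interferon response and antigen presentation genes had no member called in either direction among 27, and their median was 0.12. The highest of them was Ifit1, which stayed just under the call on the log2(signal + 26.4) scale (143.1 to 311.6). The class II chain H2-Aa was at 0.95, with 0.85 and 0.19 in further probe sets.

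All 3 chains of fibrinogen, the clotting protein made mainly by the liver, were higher. Fgg had signals of 350.1 in nondiabetic sham, 478.1 in nondiabetic uninephrectomy, 569.4 in diabetic sham and 2921 in diabetic uninephrectomy. Its difference of 2.97 was the third largest of all named expressed genes. Fgb was at 1.96 (99.8 to 463.6) and Fga at 1.79 (610.9 to 2180.2). The liver gene Alb had the other sign, with 497.9 in nondiabetic sham and 203.3 in diabetic uninephrectomy (-1.19). The promoter of Fga is shown because it holds a match to the letters GTTAATNAT of the hepatocyte factor HNF1, on the other strand and in capitals.
Fga (chr3:83026033-83026152, plus strand): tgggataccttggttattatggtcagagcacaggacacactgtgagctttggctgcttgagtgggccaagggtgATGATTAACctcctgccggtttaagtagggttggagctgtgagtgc
This match stands in 0.781% of all promoters, 0.483% of expressed genes, 1.14% of higher genes (2 of 176) and 4.55% of lower genes (3 of 66). Of 19 expressed complement and coagulation genes 6 were called higher, among them Cfi, complement factor I (2.32), and F2r, the thrombin receptor (1.36, with 1.41 in its second probe set). Factor B, Cfb, was at -0.54 and factor V, F5, at -0.96, so this list was not uniform and its median was 0.30.

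**Figure D4:**
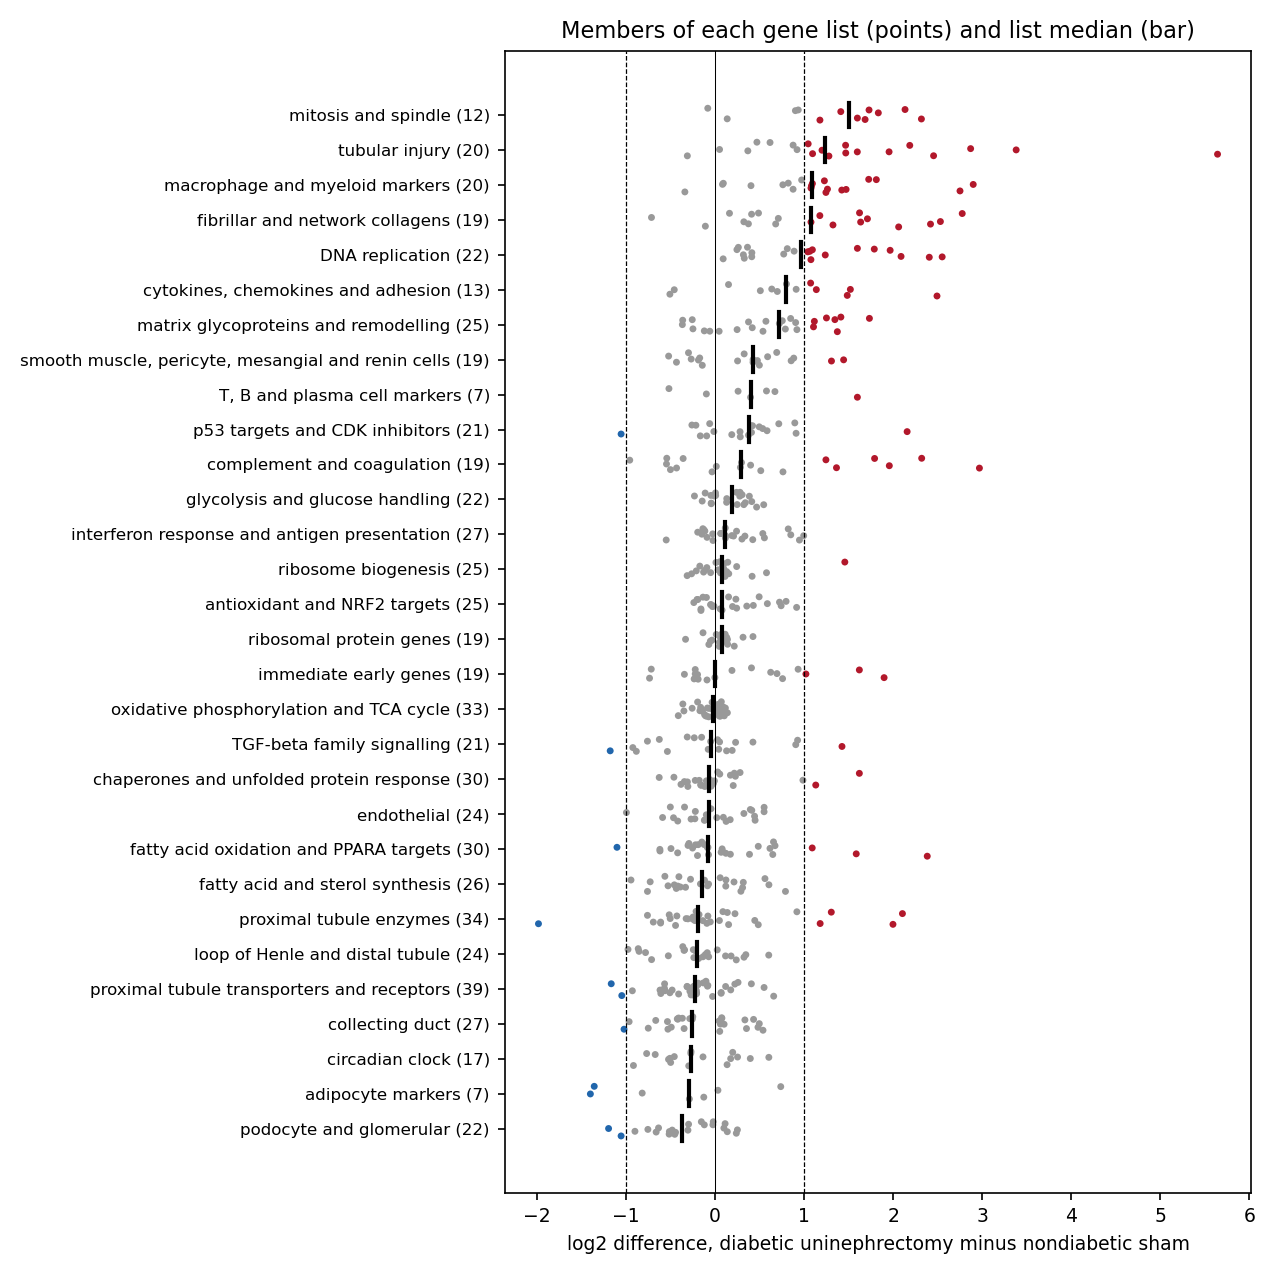
Log2 difference between diabetic uninephrectomy and nondiabetic sham (x axis) for every expressed member (points) of the 30 gene lists with at least 7 expressed members, with the list median as a black bar and the number of expressed members in brackets. Members at least 2-fold higher are red and at least 2-fold lower blue; the medians run from 1.51 for mitosis and 1.24 for tubular injury to -0.37 for podocyte genes.

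Genes of the nephron's normal functions had smaller differences and mostly below 0. Of 39 expressed proximal tubule transporters and receptors, 30 were below 0, yet only 2 reached 2-fold. These were 5.13% of the list, beside 0.759% of all expressed genes called lower. The median was -0.23 (-0.11 under spike-in scaling). Both called genes were organic anion transporters. Slc22a7 had signals of 8336.7 in nondiabetic sham, 4689.1 in nondiabetic uninephrectomy, 5079.7 in diabetic sham and 3703.6 in diabetic uninephrectomy (-1.16). Slc22a8 read 6579.2, 7744.3, 5856.9 and 3171.8 (-1.05, with -1.41 in its second probe set). The endocytic receptors Lrp2 (megalin) and Cubn (cubilin), which recover filtered protein, were at -0.57 and -0.61. Glucose transporters differed in sign, with -0.48 for Slc5a2 (SGLT2), 0.55 for Slc5a1 (SGLT1), 0.41 for Slc2a2 (GLUT2) and 0.66 for the mannose and fructose carrier Slc5a10. In diabetic sham Slc5a10 was at 9202.3 and Slc2a2 at 11085, close to their 8648.8 and 10821 in diabetic uninephrectomy. Slc13a4, a sulfate transporter outside the list, was among the lowest genes of all at -2.05 (1009.8 to 223.6).

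Proximal tubule enzymes included 4 of 34 (11.8%) called higher and 1 (2.94%) lower, beside 2.14% and 0.759% of all expressed genes. Their median was -0.19. The low one was Hpd, an enzyme of tyrosine breakdown, with signals of 6470.1, 6762.9, 4291.0 and 1618.3, which is 3.95-fold lower. Cyp27b1, which makes active vitamin D, was higher by 2.00 (184.9 to 817.7), with 138.5 in nondiabetic uninephrectomy and 385.5 in diabetic sham. Cyp24a1, which breaks active vitamin D down, was at 0.92, and its highest signal, 3820, was in nondiabetic uninephrectomy. Cyp4a12a, an arachidonic acid hydroxylase, was at 2.10, Ugt2b38 at 1.31 and Akr1c21 at 1.18. Aldh1a7, an aldehyde dehydrogenase outside the list, was the fourth highest gene (2.92, 306.4 to 2492.6). Apom, the apolipoprotein M gene that kidney and liver express, was lower in both probe sets, at -1.63 and -1.39 (4820.7 to 1538.2 in the brighter one).

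In the loop of Henle and distal tubule 0 of 24 genes were called, and the median was -0.20. Egf, one of the brightest genes of the kidney, had signals of 36519 in nondiabetic sham, 38379 in nondiabetic uninephrectomy, 31758 in diabetic sham and 20210 in diabetic uninephrectomy (-0.85). Pvalb was at -0.86 and Cldn16, a paracellular magnesium channel, at 0.60. Collecting duct genes had 1 of 27 called (3.7%, beside 0.759% of all expressed genes called lower). It was the basolateral water channel Aqp4, lower in all 3 probe sets, at -1.02 to -1.44. Its signals of 5295.7, 2305.1, 2220.8 and 2596.1 show that nondiabetic sham was the array that stood apart. The vasopressin-regulated channel Aqp2 was at 0.50 and Sgk1, the aldosterone-induced kinase, at 0.54. Slc26a4 (pendrin) and Slc4a1, the anion exchangers of intercalated cells, were at -0.96 and -0.75.

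Podocyte and glomerular genes had the lowest median of the lists with at least 7 expressed members, -0.37. Of 22 expressed members 2 (9.09%) were called lower, beside 0.759% of all expressed genes, and 0 higher. Nphs1, which encodes nephrin of the filtration slit, had signals of 381.5 in nondiabetic sham, 420.5 in nondiabetic uninephrectomy, 253.9 in diabetic sham and 151.8 in diabetic uninephrectomy (-1.19). The inhibitor Cdkn1c, which mature podocytes express, was the other, at -1.05. Foxc2 was at -0.90, Podxl, the charged coat protein, at -0.51, and Ptpro at -0.63. Wt1 (-0.02), Synpo (-0.15) and Actn4 (0.11) were near 0, so podocyte genes did not differ by one common amount. Endothelial genes had 0 of 24 called and a median of -0.07, or 0.05 under spike-in scaling. Their lowest member was Esm1 (-0.99).

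Energy metabolism differed in single genes more than in whole pathways. The 33 genes of oxidative phosphorylation and the TCA cycle lay between -0.41 (Idh2) and 0.14 (Mdh2) in their brightest probe sets. Their median was -0.02 (0.11 under spike-in scaling), and 0 were called. A second, dimmer probe set of Idh2 gave 0.67 (187.9 to 314.5). Glycolysis had 0 of 22 called and a median of 0.19. Among fatty acid oxidation genes and PPARA targets 3 of 30 (10%) were called higher and 1 (3.33%) lower, beside 2.14% and 0.759% of all expressed genes. Angptl4, an inhibitor of lipoprotein lipase, had signals of 388.8, 839.0, 1858 and 2139 (2.38), and Pdk4, which turns off pyruvate oxidation, 715.7, 1212, 2496 and 2201 (1.59). In these genes the diabetic sham array was at about the level of diabetic uninephrectomy, unlike in the injury genes. Bdh1, a ketone body enzyme, was at -1.10, with -0.57 in its second probe set. The lipid synthesis regulator Srebf1 (-0.94) and its targets Scd1 (-0.76) and Fasn (-0.73) showed the same: Srebf1 read 2033, 1912, 1004 and 1044. Sterol synthesis genes differed in sign, with Sqle at 0.79, Msmo1 at 0.61 and Fdps at 0.56, but Cyp51 at -0.56 and below 0 in all 3 probe sets, and Lss at -0.39. None of the 26 lipid synthesis genes was called.

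Stress and housekeeping groups had between 0 and 3 called genes each. Called higher were 15.8% of immediate early, 6.67% of chaperone and 4% of ribosome biogenesis genes, beside 2.14% of all expressed genes. Antioxidant genes had 0 of 25 called, with the metallothionein genes Mt2 and Mt1 at 0.92 and 0.74, but a second probe set of Mt1 gave -0.94. Of 30 chaperone and unfolded protein genes 2 were called higher, Atf3 (1.62) and Ddit4 (1.13). Immediate early genes had 3 of 19 called higher, Myc (1.90, 129.2 to 553.7), Atf3 and Ccn1 (1.02), while Egr1 and Dusp1 were at -0.72 and -0.73. Ccn1 had 4 probe sets, at 1.02, 0.92, -0.03 and -0.28. Ribosomal protein genes had 0 of 19 called, with a median of 0.07, beside the 1.88 times higher 18S signal. Of 25 ribosome biogenesis genes Utp20 alone was called (1.46). Clock genes had 0 of 17 called and a median of -0.27, with Dbp lowest at -0.92.

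Markers of tissues that can adhere to a dissected kidney were read beside these groups. Of 12 adipocyte genes on the array 7 were expressed, 2 of these were called lower, and their summed signal was 15696 in nondiabetic sham, 6144 in nondiabetic uninephrectomy, 27949 in diabetic sham and 14303 in diabetic uninephrectomy. Adipoq (adiponectin) read 817.3, 66.2, 1380 and 293.5 (-1.40) and Car3 7398, 1229, 14558 and 2874 (-1.36), so for these 2 genes both uninephrectomy arrays were below both sham arrays. Fabp4, a fatty acid carrier of fat cells that endothelium also makes and the brightest member in diabetic uninephrectomy, read 5923, 3909, 10020 and 9899 (0.74, with 0.46 to 1.23 over its 4 probe sets), so the list did not differ in 1 direction. Over all 12 adipocyte genes on the array 5 were at least 2-fold lower and 0 higher, and 3 of the 5 lay below the filter. With no filter 573 of all 18193 genes were at least 2-fold lower and 801 higher. Thrsp, a lipogenic gene that fat expresses strongly, read 829.2, 143.6, 376.5 and 154.0. It was the second lowest of all named expressed genes (-2.25, with -1.33 in its second probe set). The part of fat tissue in its difference was not tested. Of 13 adrenal genes 10 lay below the filter, among them Cyp11a1, Cyp11b1 and Th, and the 3 expressed ones lay between -0.22 and 0.04. Of 14 urothelial genes 6 were expressed, and Sprr1a was at 1.81. Over all 14, 3 were at least 2-fold higher and 0 lower, and 2 of the 3 lay below the filter. The uroplakins Upk3a, Upk1b and Upk2 were at 0.87, -0.12 and -0.28, and the other 3 probe sets of Upk1b lay between 0.48 and 0.66. Of 14 muscle, liver and pancreas genes 4 were expressed. The pancreas marker Cela1 was bright on all arrays, at 5956.4, 6390.5, 7652 and 7625.5 (0.355). Ckm was at 0.12, Apoa2 at -0.11 and Alb, given above, at -1.19. The muscle genes Acta1 and Myh4, the liver gene Ttr and the insulin gene Ins2 lay below the filter.

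The lowest genes outside the lists had mixed functions. Nap1l5 was the lowest named expressed gene, with signals of 522.0, 333.6, 287.3 and 88.5 (-2.25). Corin, the protease that activates natriuretic peptide, read 328.7, 149.9, 118.7 and 49.7 (-2.22). The cytochrome gene Cyp2d12 was at -1.99, Lsm7, an RNA processing gene, at -1.67 and Agmat, agmatinase, at -1.62. Ang (angiogenin) was at -2.04, but its second probe set gave -0.63. Lower in every expressed probe set were also Syn3, Spats2l, Sec14l3, Slc22a26 and Cbs, with the expressed probe set nearest 0 between -0.98 and -1.24. Sec14l3 and Slc22a26 were lower still in diabetic sham, at 287.6 and 140.9, than in diabetic uninephrectomy, at 367.5 and 221.6.

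In their medians over the called genes, the other 2 arrays lay between the 2 compared. Single genes did not all follow, as the signals of Lcn2, Havcr1, Pdk4, Sec14l3 and Aqp4 show. The 240 higher genes had a median difference of 1.31 in diabetic uninephrectomy, 0.26 in nondiabetic uninephrectomy and 0.55 in diabetic sham, each against nondiabetic sham. For the 85 lower genes the medians were -1.18, -0.30 and -0.59. These genes were picked on the first of the 3 differences, all 3 share the nondiabetic sham array, and no test of their order was made.

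An error that does not come from probes can be had only with the other 2 arrays, by assuming that diabetes and uninephrectomy add up on the log2 scale. In limma's additive model each gene then has 1 residual degree of freedom, moderated with 57.9 prior degrees of freedom from all genes, and the standard error of the difference had a median of 0.28. At a Benjamini-Hochberg adjusted p below 0.05 from this limma fit, 178 genes (1.59%) passed as higher and 81 (0.723%) as lower, among them 143 of the 240 and 44 of the 85. For example Col3a1 had a standard error of 0.26 and Lcn2 of 0.63. This error measures the departure from additivity, taken mostly from all genes and little from the gene itself, and not the spread between mice. Passing therefore does not show that a gene's own values add up. Lcn2 was at -1.09 in nondiabetic uninephrectomy and 1.88 in diabetic sham, each against nondiabetic sham, but at 5.64 in diabetic uninephrectomy. The count depends on the model: without a trend of the variance on the mean signal limma passed 0 genes, with 933 at an unadjusted p below 0.05.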

How the data were processed

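Total RNA of frozen kidney was pooled from 4 mice a group, and 100 ng was labelled with biotin, per the labels' protocols. The deposited table holds linear intensity values of 45101 probe sets already summarised and scaled by the authors: the mean without the highest and lowest 2% lay between 499 and 500 on each array. The authors' software is not given in the sources used here. No further normalisation was applied. Of 45037 non-control probe sets, 34945 had 1 gene symbol, 932 several and 9160 none in the platform annotation of 2016. A RefSeq table (GRCm38.p6) held 34741 of them and changed 0 symbols. The probe set with the highest mean stood for its gene. Expressed genes were those whose mean over the 4 arrays was at least 7.06 on the log2 scale (a signal of 107), which is the median of all probe sets. A list gene was matched by symbol (845 of 933 entries of 35 lists).

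Named genes were the 15 highest and 15 lowest, the 10 highest and 10 lowest by agreement of probe sets, up to 6 members of each list by size, and markers of other tissues. Further list members were named after their values were seen. The members and lists were chosen with earlier results of these data known. Calculations used Python 3.11.15, R 4.3.3 and limma 3.58.1. Promoters came from RefSeq. Alternatives covered scaling, offset, expression filter, choice of probe set, threshold and the variance trend.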

Additional observations from a re-analysis of the deposited data

Results flagged for a closer look

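Probe sets without a single gene symbol in the annotation entered no comparison above. Among 3155 such probe sets that passed the expression filter, 58 (1.84%) were at least 2-fold higher in diabetic uninephrectomy than in nondiabetic sham. At least 2-fold lower were 43 (1.36%). For the named expressed genes the shares were 2.14% and 0.759%, so the higher share was no larger here. They were looked at more closely because they lie outside the gene comparison. The highest was 1423954_at, with signals of 491.1 in nondiabetic sham, 486.4 in nondiabetic uninephrectomy, 1822.5 in diabetic sham and 5005.7 in diabetic uninephrectomy, a difference of 3.28. The lowest was 1448975_s_at, with 5029.9, 3275.9, 1937.3 and 522.6 in the same order, a difference of -3.20, which is below that of every named gene.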

How the results depend on the processing

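No paired analysis was possible because each group is 1 array of pooled RNA, and for the same reason no array could be left out in turn. The counts of genes at least 2-fold higher (240) and lower (85) became 801 and 573 with no expression filter, 78 and 33 with a stricter one, and 733 and 530 at 1.5-fold. The higher count was 152 with the mean of the probe sets. The lower count was 133 with an offset of 1, 54 with an offset at the 40th percentile, 55 under scaling to the Bio and Cre spike-ins and 165 with probe sets counted singly. Quantile normalisation gave 233 and 80, and kept 233 of the higher and 78 of the lower genes. Spike-in scaling moved the median of all genes to 0.11 and kept 238 and 55.

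The limma counts (178 higher, 81 lower) became 79 and 25 after median centring, 87 and 48 without probe sets whose suffix marks shared sequence, 75 and 32 with probe sets counted singly, and 3 and 1 with the mean of the probe sets. They were 3 and 0 with no expression filter (1245 genes at an unadjusted p below 0.05), 8 and 0 under spike-in scaling (144), and 0 and 0 without a trend (933). Ccn1 turned from 1.02 to -0.28 without shared-sequence probe sets. Spike-in scaling and the filter on the 2 arrays compared were chosen after seeing the data. Among single genes 1963 values stayed on the same side of 2-fold, 26 newly passed it and 23 no longer did. A further 1, at least 2-fold in 1 of the 2 settings, reversed its sign. Sign changes of values under 2-fold in both settings were not counted as reversals. List medians moved by under 0.1 or within 1.5 times in 284 cases and by more in 40. Their sign changed in 14 cases, 7 of them under spike-in scaling, all in lists with a median within 0.08 of 0. The cause of these shifts was not tested. Genes dim on all arrays are the least certain.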
